A study of Mus musculus with 2 samples.

Results

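The loci described here are transcribed regions of mouse gastrocnemius muscle built from transcript models that the deposited quantifications class as antisense to annotated genes. They were chosen as all autosomal models whose gene class is Antisense, with the ERCC control contigs left out and the loci opposite 1 gene set aside. This gave 6984 of 80416 models in replicate 1 and 6684 of 74962 in replicate 2. Loci whose spans overlapped on the same strand were joined between the libraries, which left 10208 loci. Of these, 706 held at least 1 spliced model and 9502 held single-exon models only.

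The study is a long-read RNA sequencing experiment on 2 libraries of one group, gastrocnemius of female B6CASTF1/J animals. The mice were 18 to 20 months old, and 2 µg of RNA went into each library. B6CASTF1/J animals are first-generation hybrids of C57BL/6J and CAST/EiJ, so each gene can be read from 2 different parental chromosomes. No treatment and no second group are labelled. The labels of both name a single donor record and an identical pair of identifiers, and the number of animals behind each is not stated, so differences between them measure the spread between these libraries, which may be technical. The libraries held 1175829 and 1017384 reads, of which 1117891 and 975696 fell on annotated mouse genes. All 8 skeletal muscle markers checked were read in both libraries, and 1 of 4 cardiac markers was. Markers of other cells were read too, in both libraries: 4 of 4 for fibroblasts, 3 of 3 each for endothelium, adipocytes and Schwann cells, and 2 of 3 for macrophages, whose summed level was 45.6 and 12.3 CPM (reads per 1000000 reads on annotated genes).

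Antisense transcripts arise when both strands of a locus are transcribed. Some start near the promoter of the gene they face and run away from it, some run into the gene's 3′ end, and some lie wholly within it. Well-known examples include Airn, which faces Igf2r, and transcripts facing clock and homeobox genes. In skeletal muscle, as in other tissues, natural antisense transcripts can be spliced with the usual GT and AG bases at the ends of their introns, or can be unspliced. In a long-read library each read stands for 1 cDNA molecule, and the cDNA is commonly primed from stretches of A at the 3′ end of the RNA. The counts below are therefore numbers of reads and are not divided by transcript length. In a bulk tissue such as this, fewer cells of a type and less RNA per cell cannot be told apart.

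The bases around the ends of the loci are shown first, because the results turn on them. Each line below gives 30 bases on the locus strand, read 5′ to 3′ from the GENCODE M21 transcripts (mm10), with the last 10 bases of the most-read model in lower case and the 20 genomic bases that follow its 3′ end in capitals. The first 6 ends are followed by long runs of A in the genome and the last 2 are not. The Ptp4a2 model itself ends in 10 A, which a count of the bases after the end leaves out.
2900097C17Rik, chr2:156391505-156391534, plus strand: cacaaaatgtAAAAAAAAAAAAAAAAAAAA
Bhlhe41, chr6:145862009-145862038, plus strand: gtccttctccAAAAAAAAAAAAAAAAAAAA
Nfib, chr4:82293255-82293284, plus strand: gaactaggttAAAAAAAAAAAAAAAAAAGG
Msrb3, chr10:120783303-120783332, plus strand: tgaactttggACAAAAAAAAAAAAAAAATG
Pitpnc1, chr11:107211754-107211783, plus strand: acaccttaccAAAAAAAAAAAAAAAAGTTT
Ak1, chr2:32634193-32634222, minus strand: gagatgctgtCTTAAAAAAAAAAAAAAAGA
Ptp4a2, chr4:129839131-129839160, minus strand: aaaaaaaaaaGCCTACTACTTCTGAGGCCA
Mef2c, chr13:83662611-83662640, minus strand: ataatgtgatCATGTTGCCCATCCTTCAGA

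The second set shows splice sites of spliced loci, 20 bases each, with the first or last 2 bases of the intron in capitals. Introns of the loci opposite Atp2a1, Nr2f2, Ubl3 and Mbnl1 have the same ends as an intron of the opposite gene, so that they read CT and AC, the reverse complement of that gene's own AG and GT. Introns of the loci opposite Dusp1 and Slc9a2 lie at positions of their own and read GT and AG.
Atp2a1, 5′ splice site, chr7:126448373-126448392, plus strand: catcccctgtCTgaagacgg
Atp2a1, 3′ splice site, chr7:126448527-126448546, plus strand: gacttctcACcatggctgtg
Nr2f2, 5′ splice site, chr7:70358281-70358300, plus strand: ctctgtacagCTgcaggagg
Nr2f2, 3′ splice site, chr7:70359878-70359897, plus strand: aggccgatACcttcccgtct
Ubl3, 3′ splice site, chr5:148551943-148551962, plus strand: gttcacttACcatatccgcc
Mbnl1, 3′ splice site, chr3:60529795-60529814, minus strand: atttactcACtttcagtgaa
Dusp1, 5′ splice site, chr17:26506558-26506577, plus strand: tcctcatgagGTaagcaagg
Dusp1, 3′ splice site, chr17:26507038-26507057, plus strand: tcctccacAGggatgctctt
Slc9a2, 5′ splice site, chr1:40681709-40681728, minus strand: aaccagttcgGTgggtgtga
Slc9a2, 3′ splice site, chr1:40681239-40681258, minus strand: ccccccgcAGgctcctgcaa

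Antisense models held 19963 reads in replicate 1 and 26045 in replicate 2. In CPM this was 17858 in replicate 1, with an exact Poisson 95% interval of 17611 to 18107, and 26694 in replicate 2, with an interval of 26371 to 27020. These intervals, like all intervals below, cover counting error only. The 2 values differed by more than their counting error, and 1 locus carried most of that difference. It lies in the ribosomal RNA region of chromosome 17 (chr17:39843013-39848035, minus strand), opposite the lincRNA genes Gm26917 and Gm42418. On its own strand it overlaps the annotated gene AY036118 and the annotated ribosomal RNA gene CT010467.1. It held 4025 reads in replicate 1, which was 20.2% of all antisense reads, and 10258 in replicate 2, which was 39.4%. Without it the antisense total was 14257 CPM in replicate 1 and 16180 CPM in replicate 2, or 1.36% and 1.55% of all reads.

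The strand assignment could be read from the ERCC controls, synthetic RNAs of known strand that were added to both libraries. Opposite-strand reads on ERCC controls that also had reads on their listed strand numbered 1 of 30212 in replicate 1, a share of 0.00331% with a Wilson 95% interval of 5.84e-04% to 0.0187%. In replicate 2 there were 0 of 7609 such reads, for which the interval reached up to 0.0505%. A further 4 controls in replicate 1 and 5 in replicate 2 had reads only on the strand opposite their listing, 259 and 74 in all. Whether the listing of these controls gives the strand of the RNA was not settled. Over all controls the opposite-strand share was 0.853% (0.756% to 0.963%) in replicate 1 and 0.963% (0.768% to 1.21%) in replicate 2. The antisense shares without the ribosomal RNA locus were 1.36% and 1.55% of all reads, higher than both measures. The first measure leaves out the controls read only on the opposite strand, and both come from synthetic RNAs and not from mouse transcripts. How much wrong strand assignment adds to the antisense reads was not tested.

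Most loci were seen once. A single read over both libraries was all that 6309 loci held (61.8%), 449 loci held at least 10 reads and 24 held at least 100. In both libraries, 69.7% of the antisense models held 1 read. Reads from both libraries were found at 2627 loci, which was 40.3% of the loci read in replicate 1 and 41.6% of those read in replicate 2. Among the loci with at least 10 reads, 438 (97.6%) were read in both. Loci with a spliced model were read in both libraries more often (287 of 706, 40.7%) than loci with single-exon models only (2340 of 9502, 24.6%). This difference was not tested, because loci with several models also hold more reads.

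**Figure D1:**
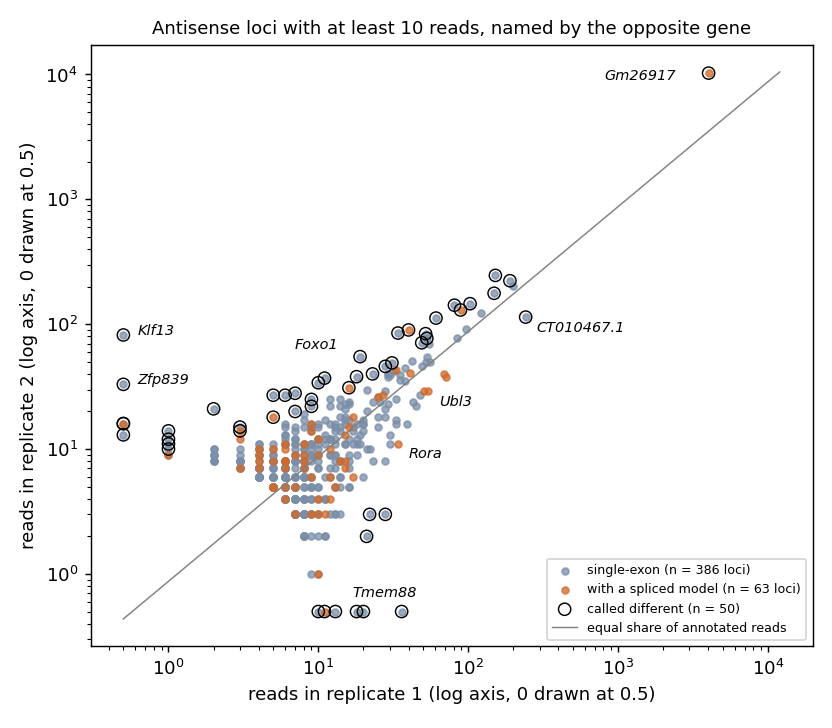
Reads of each antisense locus with at least 10 reads in replicate 1 (x axis, log) and replicate 2 (y axis, log), coloured by whether the locus held a spliced model, with a circle around the 50 loci that the exact binomial test called different between the libraries and a grey line where a locus would hold the same share of annotated reads. Most loci lie near the line, Gm26917 lies far above the others, and Klf13 and Zfp839 have no read in replicate 1.

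Compared with other unannotated or antisense transcription in the same libraries, the loci were rich in single-exon models. Autosomal intergenic loci, which face no annotated gene, numbered 2505, and 449 of them (17.9%) were read in both libraries. Annotated genes of the GENCODE biotype antisense numbered 477, and 211 of them (44.2%) were read in both. Spliced models made up 7.62% of the models of the antisense loci, 14.3% of the intergenic models and 53.5% of the models of annotated antisense genes. The annotated antisense genes together held 1399 CPM in replicate 1 and 1286 CPM in replicate 2, below the unannotated loci in both libraries, and the intergenic loci held 3992 and 4149 CPM.

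Single-exon models held 19099 and 25318 reads. The median length of a single-exon model was 1332 bases in replicate 1 and 1646 bases in replicate 2, and that of a spliced model 1650 and 2060 bases. Spliced models held 864 reads in replicate 1, 4.33% of antisense reads (Wilson 95% interval 4.05% to 4.62%), and 727 reads in replicate 2, 2.79% (2.60% to 3.00%). Without the ribosomal RNA locus the spliced share was 5.41% (5.07% to 5.78%) and 4.55% (4.24% to 4.89%). The share was lower in replicate 2 with and without that locus.

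The opposite genes were mostly protein-coding, at 9559 loci (93.6%), and 5511 different genes faced at least 1 locus. An annotated gene on the locus's own strand was overlapped by 190 loci (1.86%), among them the ribosomal RNA locus, and by 18 of the 449 loci with at least 10 reads (4.01%). For 89 loci the joined span faced no annotated gene on the other strand. Of those, 71 faced a read model of another class, which may belong to an annotated gene and run past its annotated end. Several annotated genes were faced by 619 loci, which are described by the gene with the largest exon overlap. Most loci (9363, 91.7%) lay wholly inside the opposite gene. The largest number of loci opposite 1 gene was 25, at Pde4d, a cyclic AMP phosphodiesterase gene that spans 1504 kb. Rora, a nuclear receptor gene of the circadian clock that spans 734 kb, faced 21 loci.

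Whether a gene faced a locus went with its span and its own expression. Of the 13987 autosomal genes with at least 1 sense read, 4887 (34.9%) faced a locus. In the fifth of genes (1 of 5 groups of equal size) with the shortest span, 53 to 5946 bases, 7.08% faced one, and in the fifth with the longest span 62.8% did. In the fifth with the fewest sense reads 12.4% faced one, and in the fifth with the most sense reads 50.3% did.

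**Figure D2:**
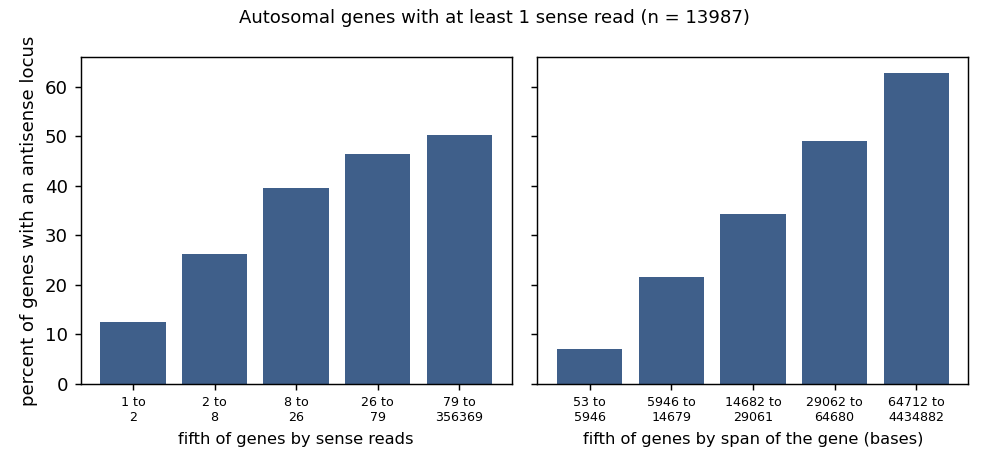
Percent of autosomal genes with at least 1 sense read that face an antisense locus (y axis), with the genes divided into 5 groups of equal size by sense reads over both libraries (left) and by the span of the gene in bases (right). The share climbs from 12.4% to 50.3% from the group with the fewest sense reads to that with the most, and from 7.08% to 62.8% from the shortest span to the longest.

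From the fifth of genes with the fewest sense reads to that with the most, antisense reads numbered 1263, 2709, 5606, 22827 and 11318. The fourth of these holds the ribosomal RNA locus, without which it was 8544, so that the number was larger in each group than in the one before. Antisense reads made up 25.9% of the reads on both strands in the group with the fewest sense reads and 0.602% in that with the most. At 137 of the 446 loci with at least 10 reads and an annotated opposite gene (30.7%) the antisense locus held more reads than its opposite gene. This share is raised by choosing loci on antisense reads, with no such limit on sense reads. Over all 10208 loci, 929 held more reads than an annotated opposite gene. The 20 genes with the most sense reads together held 944428 sense reads and faced only 237 antisense reads, 0.0251% of both strands. Acta1, which encodes skeletal muscle actin, had 66373 and 50333 sense reads in replicates 1 and 2 and no antisense read. Ckm, the muscle creatine kinase, had 68798 and 53678 sense reads and 2 and 0 antisense reads. Of these 20 genes, 8 faced no locus, among them the glycolytic genes Aldoa and Eno3 and the Z-disc gene Actn3. The highest antisense share among the 20 was 0.592%, at Pfkm, the muscle phosphofructokinase.

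**Figure D3:**
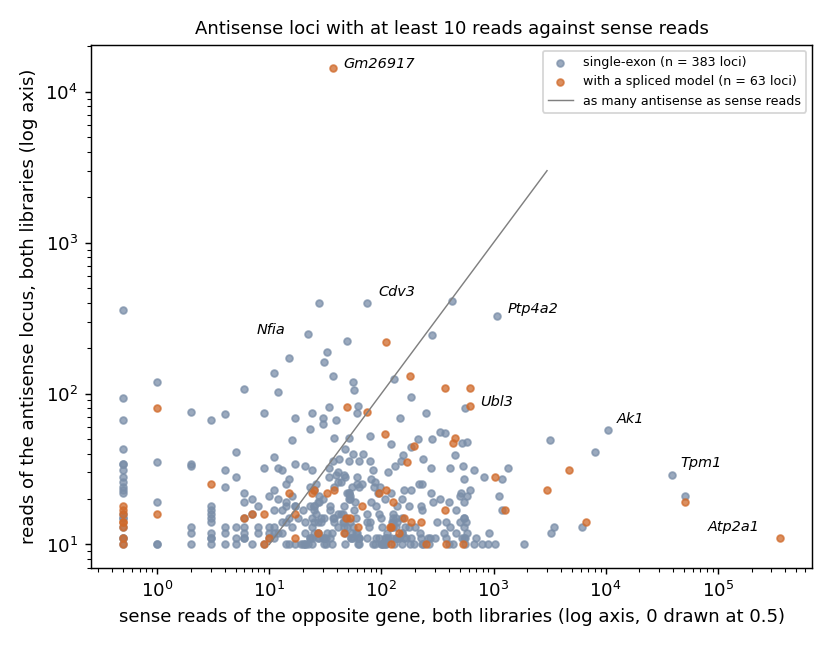
Reads of each antisense locus with at least 10 reads and an annotated opposite gene (y axis, log, both libraries) against the sense reads of that gene (x axis, log, both libraries), with a grey line where both are equal. Cdv3 and Nfia lie above the line, while Ak1, Tpm1 and Atp2a1 lie far below it.

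Position within the opposite gene differed between loci of 1 read and loci of many. An exon of the opposite gene was overlapped by 5201 loci (51.0%), coding sequence by 3110 (30.5%), and 4918 (48.2%) lay over introns only. Among loci of 1 read 46.6% overlapped an exon, and among loci with at least 10 reads 75.1% did. The 3′ untranslated region (UTR) showed the widest gap, with 9.76% of the loci of 1 read and 38.8% of those with at least 10 reads over it. Of the single-exon loci with at least 10 reads, 158 of 386 (40.9%) lay wholly within 1 exon of the opposite gene. No test was made of these differences, since read number and the width of a joined locus are linked.

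Few loci lay at the start of the opposite gene. Within 1000 bases of that gene's annotated start, 468 loci (4.58%) began, and 1304 (12.8%) began within 1000 bases of the start of any annotated transcript of it. For spliced loci the first share was 11.8% and for single-exon loci 4.05%. Among loci with at least 10 reads these shares were alike, 4.76% (3 of 63) and 4.92% (19 of 386). The 5′ end of the opposite gene was crossed by 20.5% of spliced loci and 4.64% of single-exon loci, and its 3′ end by 15.9% and 5.50%. Within 5000 bases after the end of a gene on their own strand, 886 loci (8.68%) began.

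**Figure D4:**
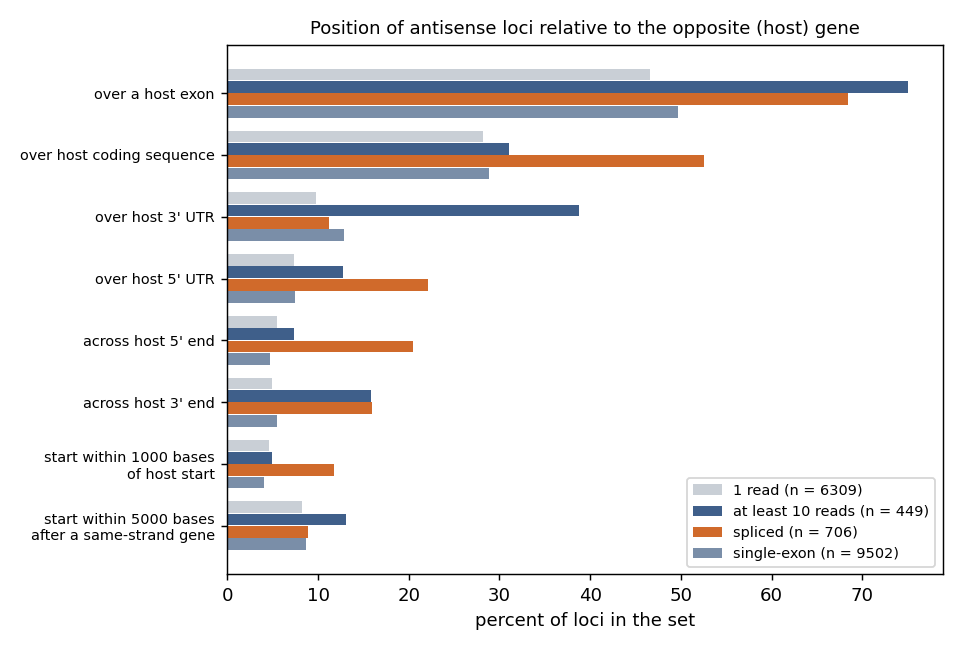
Percent of loci (x axis) at each position relative to the opposite gene, here called the host (y axis), for loci with 1 read, loci with at least 10 reads, loci with a spliced model and loci with single-exon models only. Loci with at least 10 reads stand at 38.8% over the 3′ UTR against 9.76% for loci of 1 read, and spliced loci stand at 20.5% across the 5′ end against 4.64% for single-exon loci.

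Loci beginning inside the promoter window of the opposite gene, 250 bases before to 50 bases after its RefSeq start, numbered 81 (0.793%). Such starts were found at 25 of the spliced loci (3.54%) and at 56 of the single-exon loci (0.589%). The locus opposite Slc43a1, an amino acid transporter gene, began 124 bases before the gene's RefSeq start, was spliced, and had 8 and 1 reads. Slc43a1 itself had 10 and 6 sense reads. RefSeq lists a gene, D930003E18Rik, whose start lies within 100 bases of the start of this locus. Below is the RefSeq promoter window of Slc43a1 (GRCm38) on the Slc43a1 strand, with the 127 bases that face the antisense locus in capitals.
Slc43a1 promoter, chr2:84840073-84840372, plus strand: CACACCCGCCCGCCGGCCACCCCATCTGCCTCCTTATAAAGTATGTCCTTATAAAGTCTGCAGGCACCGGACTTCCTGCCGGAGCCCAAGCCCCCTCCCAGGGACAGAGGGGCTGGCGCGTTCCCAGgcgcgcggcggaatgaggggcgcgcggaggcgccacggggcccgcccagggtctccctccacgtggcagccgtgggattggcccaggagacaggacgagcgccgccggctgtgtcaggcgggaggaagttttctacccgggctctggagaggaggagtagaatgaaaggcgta

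RefSeq genes of the locus strand started within 100 bases of 25 loci, and 19 of these loci were spliced. Their reads were few. The one with the most reads faced Slc43a1, the next faced Mrs2 (RefSeq Gm52042), with 2 and 5 reads, and the third faced Ube2v1 (RefSeq Gm31852), with 4 and 2 reads.

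The 3′ ends of the loci recurred between libraries. At the 438 loci with at least 10 reads that were read in both, the most-read model of each library ended on the same base at 260 (59.4%), and within 10 bases at 328 (74.9%). The 5′ ends were less alike, with 176 (40.2%) within 10 bases and a median distance of 207 bases.

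The genome was A-rich just after many of these 3′ ends. The 20 bases after the end could be read at 2230 loci, all those whose end lies opposite an annotated exon or in a promoter window, and at 795 of them (35.7%) at least 12 of the 20 were A. Of all windows of 20 bases on the antisense strand of the opposite genes' exons, 1.62% met the same count. These windows cover coding and untranslated exons alike and were not matched to the regions where the ends lie. Of the 218 readable loci with at least 10 reads, 150 lay over a 3′ UTR. Among readable loci of 1 read the share was 31.8% (392 of 1233), among those read in both libraries 41.6% (313 of 753), and among those with at least 10 reads 50.9% (111 of 218). All 20 bases were A at 35 of those 218 loci. Single-exon loci stood at 36.6% and spliced loci at 17.8%. The bases come from the reference genome, and the CAST/EiJ chromosomes can differ from it. Whether the A-rich stretches set where these reads end was not tested.

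**Figure D5:**
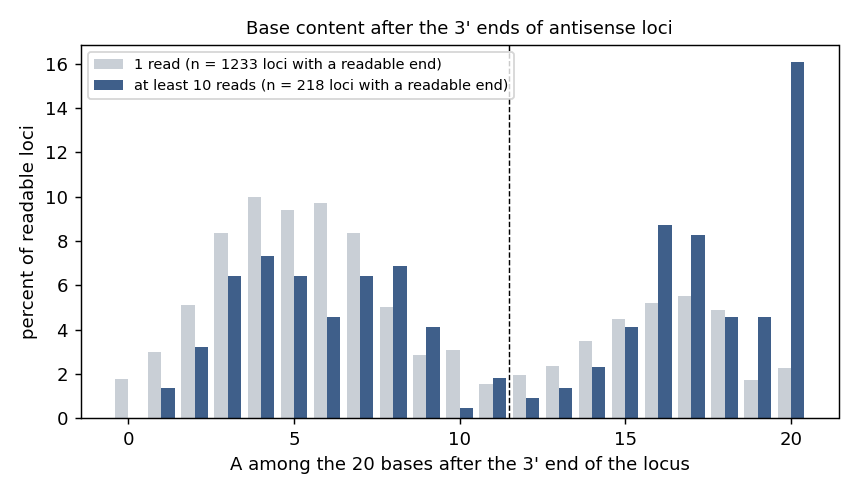
Percent of readable loci (y axis) by the number of A among the 20 genomic bases after the 3′ end (x axis), for loci with 1 read and loci with at least 10 reads, with a dashed line at the limit of 12 A. Both sets fall into 2 humps, and 35 of the 218 loci with at least 10 reads are followed by 20 A.

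The hexamers AATAAA and ATTAAA, the common polyadenylation signals, were searched on the locus strand in the last 50 bases before the end. At least 1 of them was present in 244 of 2119 readable loci (11.5%), against 4.89% of all windows of 50 bases on the antisense strand of the opposite genes' exons. Those windows, too, were not matched to the regions where the ends lie. Spliced loci held one in 16.4% and single-exon loci in 11.2%. A match is a run of letters and not proof of a used signal.

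The 12 loci with the highest CPM in single-exon models, ranked by the lower of the 2 libraries, include the ribosomal RNA locus and a second locus within the same region. The second (chr17:39846353-39846958, plus strand) lies opposite CT010467.1 and had 242 and 114 reads, or 216 and 117 CPM. Of the 12 loci, 11 lay wholly inside the opposite gene and 7 lay over its 3′ UTR. At 9 of the 12 the antisense locus had more reads than the opposite gene in both libraries. Of 8 ends that could be read, 3 were followed by an A-rich stretch. Ptp4a2 is not counted among these, although its model itself ends in a run of A. Of the 12, 2 also hold a spliced model, the ribosomal RNA locus with 1 and 8 spliced reads and the Sept11 locus with 0 and 1.

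Cdv3 faced a locus (chr9:103354101-103355313, plus strand) with 199 and 201 reads against 40 and 35 sense reads. That locus covered 1065 bases of the Cdv3 3′ UTR and 148 of its coding sequence. The unannotated locus therefore had more reads than its opposite gene in both libraries.

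Further loci opposite 3′ UTRs followed the same layout. Nfia, a nuclear factor I transcription factor gene, faced 103 and 146 reads (chr4:98111218-98115887, minus strand) and had 11 sense reads in each library. Pitpnc1, a phosphatidylinositol transfer protein gene, faced 81 and 142 reads (chr11:107207892-107211763, plus strand) and had 26 and 23 sense reads. Sept2, a septin gene, faced 97 and 92 reads (chr1:93507713-93509733, minus strand) and had 17 and 16. At all 3 genes antisense reads outnumbered sense reads. Tmem170b faced 84 and 77 reads (chr13:41637369-41639203, minus strand) against 12 and 19 sense reads. At Msrb3, which encodes a methionine sulfoxide reductase, both strands were close, with 122 and 123 antisense reads (chr10:120781271-120783312, plus strand) and 150 and 135 sense reads.

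Other loci of the 12 lay elsewhere in their genes. The locus opposite 2900097C17Rik, a noncoding gene, had 190 and 223 reads (chr2:156388065-156391514, plus strand), close to the 193 and 236 sense reads, and was followed by 20 A. Ptp4a2, a protein tyrosine phosphatase gene, faced 149 and 177 reads over 528 bases of exon, 96 of them coding (chr4:129839151-129839678, minus strand), fewer than its 605 and 474 sense reads. Sept11, another septin gene, faced 89 and 130 reads (chr5:93170407-93173473, minus strand) against 52 and 59 sense reads.

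Spliced models were described by their introns. They held 931 different chains of introns, of which 110 (11.8%) were read in both libraries, and 595 chains (63.9%) had 1 intron. The median intron was 1352 bases long. In replicate 1, 95 of 550 spliced models (17.3%, Wilson 95% interval 14.3% to 20.7%) held at least 1 intron with exactly the ends of an intron of the opposite gene. In replicate 2, 90 of 491 did (18.3%, 15.2% to 22.0%). Those models held 229 of 864 spliced reads (26.5%) and 185 of 727 (25.4%).

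The bases at intron ends differed between introns with the ends of an annotated intron and the others, which for the first kind follows from its definition. Both ends could be read in the annotated transcripts for 83 of 1300 different introns. Of the 9 with the ends of an annotated intron on the other strand, all 9 read CT and AC, as the reverse complement of a GT and AG intron must. Of the other 74, 68 read GT and AG, 5 read GC and AG and 1 read CT and GC. With 1 end readable, 170 of 182 other introns (93.4%) began with GT and 151 of 160 (94.4%) ended with AG. Of the introns with the ends of an annotated one, 23 of 24 began with CT and 1 with GT, and all 26 readable 3′ ends were AC. Chains with an intron of the opposite gene were read in both libraries for 29 of 156 (18.6%) and the others for 81 of 775 (10.5%).

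Of the 12 loci with the highest CPM in spliced models, ranked by the lower of the 2 libraries, 8 held models with an intron of the opposite gene. Ubl3, a ubiquitin-like protein gene, faced the most such reads among the 12, 54 in replicate 1 and 29 in replicate 2, all in models with an intron of Ubl3 (chr5:148509279-148552157, plus strand). Ubl3 itself had 355 and 259 sense reads. Opposite Mbnl1, a splicing regulator in muscle, 34 and 17 spliced reads were found (chr3:60529549-60599092, minus strand), and 32 and 14 of them were in models with an Mbnl1 intron. Every spliced read was in such a model at Nr2f2, a nuclear receptor gene (11 and 6 reads), and at Crebbp, a histone acetyltransferase gene (9 and 4). The same held for Gtf2a1, a general transcription factor gene (5 and 10), Bcl2l1, a survival gene of the BCL2 family (8 and 5), and Atp2a1, the calcium pump of the sarcoplasmic reticulum (6 and 5). Dusp13, a dual-specificity phosphatase gene, faced 6 and 9 spliced reads, of which 5 and 9 were in models with its introns. Whether these models come from the antisense strand or from sense RNA assigned to the other strand was not tested.

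The other 4 of the 12 had no read in a model with an intron of the opposite gene. Opposite 9030025P20Rik (chr17:14981576-14992869, minus strand) 50 and 29 spliced reads fell into 19 chains, 6 of them read in both libraries, while the gene itself had 1 and 0 sense reads. Inside Rora (chr9:68757452-68771460, minus strand) 29 and 9 spliced reads fell into 11 chains, 4 of them read in both, over introns of Rora only. Rora had 123 and 72 sense reads. Opposite Cyp2c23, a cytochrome P450 gene with no sense read in either library, there were 6 and 8 spliced reads (chr19:44000272-44010945, plus strand). Adcy2, an adenylyl cyclase gene, faced 5 and 5 spliced reads over its introns (chr13:68787903-68795146, plus strand). Several loci with a spliced model held more reads in all than some of the 12, such as those opposite Neat1 (40 and 90), Msi2 (41 and 41) and Klhl24 (33 and 43), but ranked below the 12 by reads in spliced models.

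Of introns with both ends readable, GT and AG bases, and reads in both libraries, the most-read lay opposite Neat1, a nuclear noncoding RNA gene, and was 59 bases long (chr19:5840809-5840867, plus strand). The 20-base windows at its ends share a run of 19 bases. At Dusp1, a phosphatase gene of MAP kinase signalling, the corresponding windows share 5 bases at most, at Slc9a2, a sodium-proton exchanger gene, 3. The Dusp1 intron was 480 bases long (chr17:26506568-26507047, plus strand) in a locus with 8 and 11 reads, and the Slc9a2 intron 470 bases (chr1:40681249-40681718, minus strand) in a locus with 6 and 7 reads.

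The gene groups were compared by how many of their read members faced a locus, beside 34.9% of all autosomal genes read. For sarcomere genes this was 32 of 47 (68.1%), for calcium handling 20 of 26 (76.9%), for glycolysis and glycogen 16 of 24 (66.7%), and for energy transfer 12 of 21 (57.1%). For clock genes it was 11 of 18 (61.1%), for transcription factors of muscle 25 of 35 (71.4%), and for imprinted genes 7 of 24 (29.2%). The fifth of genes with the most sense reads stood at 50.3% and the fifth with the longest span at 62.8%. Read levels ordered the groups differently. For each 1000 sense reads, calcium handling genes faced 0.465 antisense reads, energy transfer genes 0.681, sarcomere genes 1.16 and glycolysis genes 1.77. Imprinted genes faced 7.62, clock genes 80.1, transcription factors of muscle 179, and all genes 21.2. These values pool the reads of a group, so a gene with many sense reads can set them. Atp2a1 held 169580 of the 186495 calcium handling sense reads in replicate 1 and 186789 of 203126 in replicate 2. It faced 10 of the 105 antisense reads of that group in replicate 1 and 10 of 76 in replicate 2. The value for all genes includes the ribosomal RNA locus. That locus held 4025 of the 18652 antisense reads counted in replicate 1 and 10258 of 25071 in replicate 2.

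Transcription factor genes of muscle faced 13 of the 38 loci of at least 10 reads opposite a listed gene. Foxo1, a factor that drives atrophy genes, faced 19 reads in replicate 1 and 55 in replicate 2 over an intron (chr3:52276155-52278241, minus strand) and had 21 and 40 sense reads. Six4, a homeobox factor gene, faced 8 and 10 reads, all opposite its 3′ UTR (chr12:73100134-73102693, plus strand), and had 14 and 3. At Nfix and Nfib, nuclear factor I genes, the loci also lay opposite the 3′ UTR, with 26 and 24 reads at Nfix and 14 and 25 at Nfib, and both ends were A-rich. Mef2c, a myogenic factor gene, faced 10 and 5 reads opposite its 3′ UTR, with an end that is not A-rich, and 2 and 9 at a second locus in an intron.

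Among sarcomere genes, Ldb3, a Z-disc protein gene, faced 16 and 31 reads (chr14:34569727-34583565, plus strand), 2 and 17 of them spliced. Ldb3 itself had 242 and 194 sense reads. Tnnt3, the fast troponin T gene, faced 16 and 15 reads against 2917 and 1821 sense reads, and Tpm1, a tropomyosin gene, 18 and 11 against 25254 and 13483. Myh4, the fastest myosin heavy chain gene, faced 2 loci, with 16 and 5 reads at one and 10 and 9 at the other, against 21229 and 29839 sense reads. Ttn, the giant titin gene, also faced 2, with 18 and 9 reads and with 6 and 11. All of these stood below the sense reads of their genes, and Ldb3 stood the least far below.

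In calcium handling and energy metabolism the pattern was alike. Pvalb, the calcium buffer of fast fibres, faced 33 and 16 reads against 1948 and 1228 sense reads. Ak1, the muscle adenylate kinase, faced 28 and 29 reads opposite its 3′ UTR against 5425 and 4981, with the A-rich end shown above. Pfkm faced 30 and 11 reads at its main locus, and Pygm, the muscle glycogen phosphorylase, 4 and 10. Pdk4, a pyruvate dehydrogenase kinase induced by fasting, had 290 and 1047 sense reads and faced 5 and 27 antisense reads, so both strands had more reads in replicate 2. Among clock genes besides Rora, Bhlhe41 faced 11 and 4 reads with an end followed by 20 A, and Per1 faced 6 and 5. No locus with at least 10 reads lay opposite an imprinted gene.

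Reads of each locus were compared between the 2 libraries with an exact binomial test against library sizes scaled by TMM, with Benjamini-Hochberg adjustment over all 8944 genes and loci that held at least 10 reads. The test compares these 2 libraries and not conditions, and it takes counting error alone. Of 449 loci tested, 50 were called at an adjusted p below 0.05 (11.1%), beside 11.9% of all features tested. Of these, 10 (2.23%) were higher in replicate 1, beside 4.63% of all features, and 40 (8.91%) were higher in replicate 2, beside 7.22%. The share of loci called was near that of all features, and the direction leaned further to replicate 2. As a log2 ratio with replicate 1 on top, the median was -0.31 over the loci and -0.02 over all features. With library totals in place of TMM these medians moved to -0.20 and 0.09. An edgeR exact test that adds a common dispersion between the libraries called 4 loci (0.891%), 2 in each direction, beside 0.425% of all features. That dispersion was estimated from the same 2 libraries, so this test is not an independent check. All 4 loci had no read in 1 library. In that library, models of another class held reads on the same strand there, as described below.

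Of the loci read in both libraries, the ribosomal RNA locus had the smallest p and was 3.16-fold higher in replicate 2 (95% interval 3.05 to 3.28). The opposite-facing locus at CT010467.1 was 1.71-fold higher in replicate 1 (1.36 to 2.16, exact binomial adjusted p = 3.93e-05), so the 2 ribosomal RNA loci moved in opposite directions. The Foxo1 locus was 3.59-fold higher in replicate 2 (2.10 to 6.41) and Pdk4 6.70-fold (2.54 to 22.3), with exact binomial adjusted p-values of 8.20e-06 and 1.53e-04. None of these 4 was called by the edgeR exact test with a common dispersion, where their adjusted p-values ran from 0.154 at Pdk4 to 1.00 at CT010467.1. At Cdv3 the ratio was 1.25 in favour of replicate 2 (1.02 to 1.53, exact binomial adjusted p = 0.149), and none of the 12 loci named for their spliced reads was called. Of all tested loci with a spliced model, 8 of 63 (12.7%) were called, those opposite Gm26917 (the ribosomal RNA locus), Neat1, Gm13943, Sept11, Cep85, B230206L02Rik, Lncpint and Ldb3. Of those with single-exon models only, 42 of 386 (10.9%) were called.

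Of the 50 calls, 11 were of loci without a read in one library, and most of them had a counterpart in the other library. Models of another class stood on the same strand over the same span in the other library at 5 of the 6 loci read only in replicate 1 and at 4 of the 5 read only in replicate 2. The locus opposite Klf13 (chr7:63921619-63923391, plus strand) had no read in replicate 1 and 82 reads in replicate 2. The second was at least 33.9-fold higher, with the 0 set at the 3 reads it allows (exact binomial adjusted p = 3.19e-27). Over that span and strand replicate 1 held 165 reads assigned to E030018B13Rik, and replicate 2 held none. A locus that faced no annotated gene (chr3:95028643-95032342, plus strand) had 36 and 0 reads, and 40 reads of replicate 2 there were classed as intergenic. The 2 libraries thus held reads at both places under different names.

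The other named loci of this kind were mixed, and 2 of the 4 overlapped an annotated gene on their own strand. Opposite Zfp839, 0 and 33 reads (chr12:110858071-110858565, minus strand) lay among 213 and 156 reads of Mpc1-ps on the same strand. Opposite Tmem88, 20 and 0 reads (chr11:69396680-69399331, plus strand) overlapped models of Naa38 with 37 and 44 reads. Opposite Vps26c there were 18 and 0 reads, and 2 reads classed as intergenic in replicate 2. Only at the locus opposite Fkbp5 among these named loci, with 0 and 16 reads (chr17:28411315-28418395, plus strand), did neither library hold another model on that strand. Fkbp5, a cochaperone of the glucocorticoid receptor, itself had 95 and 33 sense reads. Over all loci read in 1 library, a model of another class stood on the same strand in the other library at 115 of 3897 (2.95%) for replicate 1 and 103 of 3684 (2.80%) for replicate 2.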

How the data were processed

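Long-read RNA libraries of gastrocnemius, replicates 1 and 2 of one group, were analysed from read counts per transcript model, which the authors deposited as raw whole-number counts with TALON classes on mm10 and GENCODE M21. Exon numbers, lengths and coordinates (other values) also come from the authors' deposited files. Neither the aligner nor its version is given in the sources used here. Antisense loci were joined by span overlap on 1 strand, and CPM is per 1000000 annotated mouse reads. Libraries held 1175829 and 1017384 reads, and with 1117891 and 975696 annotated ones, 0 reads allow up to 2.68 and 3.07 CPM (3 reads). Bases came from GENCODE transcripts and RefSeq windows: 1033 of 1033 windows held by both were equal. Tests used Python 3.11.15, scipy 1.17.1, R 4.3.3, edgeR 4.0.16 (TMM, exact test) and DESeq2 1.42.0 (size factors). The binomial test was tested on simulated counts.

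The members and gene lists were chosen with earlier results of these data known. Named loci are the 12 with the highest CPM in spliced models and the 12 with the highest in single-exon models, by the lower library, the 4 with the smallest p in each direction, the 3 with the most reads in each library and none in the other, and those of at least 10 reads opposite listed genes. The 3 loci opposite 1 gene, and some other named loci, are not reported here, and ERCC contigs and sex chromosomes were left out. Neat1, Dusp1 and Slc9a2 introns, the loci at Slc43a1, Mrs2, Ube2v1, Msi2 and Klhl24, those in the last part on promoter windows and long genes, and the called loci with a spliced model were chosen after their values were seen.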

Additional observations from a re-analysis of the deposited data

Results flagged for a closer look

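Antisense reads were also present outside the autosomal loci. On the ERCC controls 260 reads in replicate 1 and 74 in replicate 2 lay opposite the listed strand, and all but 1 of them were on controls with no read on the listed strand. Chromosome X held 272 antisense reads in replicate 1 and 259 in replicate 2. The mitochondrial genome, which is transcribed from both strands, held 105 and 84.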

How the results depend on the processing

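The number of loci read in both libraries fell to 1030 when 2 reads in each were asked for. Without the ribosomal RNA locus, antisense reads averaged 15219 CPM against 22276 and the spliced share of reads 4.98% against 3.56%; models of at least 2 reads gave 2.14%. The share of spliced models with an intron of the opposite gene, 17.8%, became 20.2% within 10 bases and 23.3% for models of at least 2 reads. The share over an exon, 51.0%, became 40.3% when 10 bases were asked for, 67.4% for loci of at least 5 reads, and 52.4% to 53.6% with 1 replicate left out. The share near the start of the opposite gene, 4.58%, became 2.83% within 500 bases, 7.52% within 2000 and 12.8% from any transcript start. The share downstream of a same-strand gene, 8.68%, became 1.64% within 1000 bases, 16.0% within 10000, and 8.81% to 8.83% with 1 replicate left out. These distances and limits change the value by construction. The count of loci called, 50, was 4 with edgeR's exact test, and 39 to 50 under the other settings. Of 65 named loci, 18 were called, and edgeR's test ended 14 of those calls. With library totals, Ldb3 was no longer called (adjusted p = 0.0622), Rora was (adjusted p = 0.0264), and the ratios at Atp2a1, Tbx15 and Per1 turned to 0.0447 (log2), all near no difference. No paired analysis was possible because there is only 1 group. Loci under 10 reads were tested only in the setting with no filter on low counts, where 39 of 10208 were called.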

Other observations

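Among the 56 single-exon loci that began in the promoter window of the opposite gene, the 3 with the most reads faced genes with few or no sense reads. Gene starts in this paragraph are RefSeq starts, which can differ from the annotated GENCODE start. The locus opposite Gm10874 began at the gene's start and had 29 reads in replicate 1 and 38 in replicate 2, while Gm10874 had 0 sense reads in both. The locus opposite Gdap10 began just inside that gene and had 12 and 22 reads, also against 0 sense reads in both. The locus opposite Zfp800, a zinc finger gene, began 8 bases before the gene's start and had 16 and 8 reads against 1 and 3 sense reads. Clk3, a kinase gene, went the other way, with 64 and 30 sense reads against 3 and 4 at its locus, which began 75 bases before its start. The spliced loci opposite Myom1, an M-band protein gene, and Pfkm began 36 and 5 bases before a RefSeq start of those genes. They had 6 and 3, and 4 and 2, reads. The GENCODE start of Pfkm lies further upstream, so the Pfkm locus began inside the annotated gene.

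Long genes gathered many small loci. All loci opposite Pde4d together held 102 and 127 reads, those opposite Rora 60 and 37, and those opposite Zbtb20, a zinc finger repressor gene, 37 and 64 over 17 loci.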
